A study of Caenorhabditis elegans with 2 samples.

Results

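The 10 genes described here carry the methionine cycle and the methylation route to phosphatidylcholine in Caenorhabditis elegans. They were taken by name from 19973 protein-coding genes, with earlier results of these data known. They are the S-adenosylmethionine synthetase genes sams-1, sams-3, sams-4 and sams-5, the phosphoethanolamine methyltransferase genes pmt-1 and pmt-2, and metr-1, mthf-1, cbs-1 and ahcy-1. Peaks of HLH-11, a basic helix-loop-helix transcription factor related to mammalian AP-4, were assigned to a gene when the summit lay between 5000 bp upstream of the gene start and the gene end. The chromatin came from strain OP396, whose unc-119(tm4063) III background carries the transgene wgIs396 with a GFP-FLAG tag at the C-terminus of HLH-11, and an antibody against GFP was used. Both replicates were whole L4 larvae of mixed sex, 53 hours old, grown from starved L1 larvae. All samples share the transgene, there is 1 group with 2 biological replicates, and an untagged strain or input was not analysed here. Whole animals were used, so the tissue behind a peak is not resolved.

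In the methionine cycle, S-adenosylmethionine synthetases turn methionine into S-adenosylmethionine, the methyl donor of most methyltransferases. PMT-1 and PMT-2 use that donor to methylate phosphoethanolamine on the way to phosphatidylcholine, the main membrane phospholipid, and AHCY-1 clears the S-adenosylhomocysteine left behind. METR-1 re-forms methionine with a methyl group that MTHF-1 supplies from folate, and CBS-1 draws homocysteine off towards cysteine. In worms, loss of sams-1 or of phosphatidylcholine synthesis is known to activate the lipid regulator SBP-1 and to raise stored fat.

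HLH-11 peaks stood at 7 of the 10 genes: sams-1, pmt-1, pmt-2, metr-1, mthf-1, cbs-1 and ahcy-1. Of all protein-coding genes 39.0% had a summit in a window built in the same way, and of those whose windows were within the members' range of lengths (6672 to 11684 bp) 41.7% did. At least 2 summits were found at 7 of the 10 genes, against 16.3% of all genes. Of the 7790 genes with a summit, 3262 had at least 2. sams-1 and cbs-1 had 5 and 4, against 2.67% of all genes with 4 or more. The 2 summits of ahcy-1 lie in overlapping intervals and 2 of the cbs-1 summits share an interval, so summits are not all separate regions. The genes without a summit were sams-3, sams-4 and sams-5, the other synthetase genes. These counts come from the authors' thresholded list of 7863 peaks. By its label the list was cut with the irreproducible discovery rate, a measure of how well ranks agree between replicates. The list equals the strongest 7863 of the 30000 pooled peaks, so a single peak in it need not have similar ranks in the replicates. A rank given below therefore holds in both of these lists, and rank 1 is the strongest. Peak signal is the height given by the authors' caller and is comparable only within a list. Sequencing depth is unknown, as the lists hold no counts of reads. No test was made of the members against other genes. As the members were chosen with earlier results of these data known, their counts are a description and no support for a preference.

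The sequence under the strongest peaks is shown first. The E-box most often found there was CACGTG, a form bound by Myc and Max proteins. It was at 3 of the 7 strongest summits and at 3 of all 20, against 5.84% of all thresholded summits. CACGTG was singled out of 10 E-box forms by its count in these same windows. Its share at the strongest summit of each gene over all genes is not given, so no enrichment can be read from this. CAGCTG, the form AP-4 proteins are known to bind, was at none of the 7. As only 4.34% of all summits hold CAGCTG, its absence from so few windows says little about these genes. CACGTG lay within 50 bp of the strongest summits of pmt-1, metr-1 and cbs-1. In each of these 3 genes its centre lay 37.5 to 38.5 bp from the summit, on its downstream side in the direction of the gene. The 3 sites are given with 10 bases to either side, on ce11 and on the strand of the gene, with the E-box in capitals. They lie at chrII:5282374-5282399 (pmt-1, minus strand), chrII:10924891-10924916 (metr-1, plus strand) and chrX:10051814-10051839 (cbs-1, plus strand).
pmt-1: gtcttccgtcCACGTGggaacttgaa
metr-1: tgccattgttCACGTGattctgctcg
cbs-1: cttatctaatCACGTGgttaatttca

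The whole 101 bp around the summit is given for the strongest peaks of cbs-1, metr-1, mthf-1 and sams-1, and for the sams-1 peak next to the gene start. Capitals mark every CANNTG E-box and the hexamers searched, on either strand. The hexamer TGATAA is one of them, the hexamer CTTATC is another, and the last is GAGAGA. The first pair is found in binding sites of GATA factors, which control intestinal and epidermal genes in worms, and overlaps in the sequence TGATAAG. The windows are chrX:10051738-10051838 (cbs-1), chrII:10924815-10924915 (metr-1), chrII:7777454-7777554 (mthf-1, minus strand), chrX:11962515-11962615 (sams-1, strongest) and chrX:11965847-11965947 (sams-1, at the start). All but mthf-1 are on the plus strand.
cbs-1: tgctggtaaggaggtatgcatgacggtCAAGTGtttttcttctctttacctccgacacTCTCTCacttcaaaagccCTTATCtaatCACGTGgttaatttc
metr-1: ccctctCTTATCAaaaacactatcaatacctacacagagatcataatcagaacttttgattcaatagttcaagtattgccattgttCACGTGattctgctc
mthf-1: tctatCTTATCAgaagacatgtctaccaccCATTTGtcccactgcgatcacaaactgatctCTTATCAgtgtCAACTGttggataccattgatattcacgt
sams-1, strongest peak: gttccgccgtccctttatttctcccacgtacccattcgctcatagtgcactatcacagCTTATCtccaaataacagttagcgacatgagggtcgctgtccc
sams-1, peak at the start: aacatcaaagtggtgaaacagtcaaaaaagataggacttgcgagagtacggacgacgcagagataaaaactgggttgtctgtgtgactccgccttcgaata

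The 2 sams-1 windows printed here hold no CANNTG sequence, whereas that of the sams-1 peak at rank 7359 holds CACCTG. The window of mthf-1 holds the GATA-type sequence in 2 copies. The windows of the strongest pmt-1 and pmt-2 peaks overlap annotated untranslated exons and are not printed in full.

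sams-1 (WBGene00008205, X 11965962 to 11969893, plus strand), which encodes the synthetase tied to phosphatidylcholine and fat levels in worms, had the most peaks of the 10 genes. Its window spans 8932 bp, against a median of 7027 bp over all genes. Of all protein-coding genes, 1.19% had at least as many as the 5 summits of sams-1, and 0.581% had more. The strongest, at X 11962396 to 11962679 (signal 428), came at rank 1101 in the pooled list, at 1530 in replicate 1 and at 1060 in replicate 2. Its summit lay 3397 bp upstream of sams-1, inside the pseudogene WBGene00045316, and the start of C49F5.13 was nearer, at 1162 bp. The next peak, at X 11964630 to 11964843, lay in intergenic sequence 1207 bp upstream, with a signal of 322 and rank 1759 (1838 and 1874 in replicates 1 and 2). A peak 65 bp upstream of the start, at X 11965811 to 11966006, reached a signal of 198 at rank 3498 (3165 and 3998). The other 2 lay inside the gene, in an intron at 2263 bp (signal 200, rank 3466) and in the 3′ untranslated region at 3875 bp (signal 95.8, rank 7359). The last ranked 6634 and 8437 in replicates 1 and 2, and so fell outside the strongest 7863 of replicate 2. The peaks of sams-1 thus ran from the far upstream region to the end of the gene, and the 2 strongest were both more than 1000 bp from its start.

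The other synthetase genes had no thresholded summit. sams-3 (WBGene00015538, IV 5848657 to 5850843, plus strand) and sams-4 (WBGene00015540, IV 5844061 to 5846369, minus strand) point away from each other, with starts 2288 bp apart. Between these starts the pooled list held 1 weak peak at IV 5847873 to 5848296, with a signal of 67.3 and rank 9732, 572 bp upstream of sams-3 and 1716 bp upstream of sams-4. It ranked 10313 in replicate 1 and 11738 in replicate 2, below the strongest 7863 of each. A weaker one, with a signal of 47.4 and rank 13360, had its summit in the sams-4 coding exon 63 bp from the start. sams-5 (WBGene00006416, IV 6277433 to 6279522, minus strand) had no summit of any of the 4 lists in its window, as had 28.6% of all protein-coding genes. It lies in a stretch of 102211 bp without a pooled summit, which holds 30 protein-coding genes, and the nearest pooled summit was 42356 bp upstream of its start. Of the 29994 gaps between neighbouring pooled summits, 25 were as long or longer, and the median gap was 1198 bp. The stretch was not empty in the single replicates: replicate 1 had a summit 3490 bp downstream of the sams-5 start, past the gene end (rank 2594), and the nearest of replicate 2 was 30845 bp downstream (rank 4779). Both are among the strongest 7863 of their replicate, and no pooled summit lies at either.

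The copies of the synthetase gene are alike, and reads from identical stretches cannot be told apart. From the annotated coding sequences, the proteins of sams-3 and sams-4 were 93.6% identical, and that of sams-5 was 91.1% identical to SAMS-3 and 92.1% to SAMS-4. SAMS-1 was 77.2% to 77.7% identical to the other 3. Of all 50-base stretches in the gene body, 48.2% were found once in the genome for sams-3 and 59.3% for sams-4, against 99.7% for sams-1, 97.8% for sams-5 and 93.5% over the genome. In the sequence between the starts of sams-4 and sams-3 every 50-base stretch was found once, as in the 5000 bp upstream of sams-5. The same held with stretches of 36 and 100 bases. Repeated sequence could therefore limit peak calls in the bodies of sams-3 and sams-4, and its part there was not tested; their shared upstream region and the sams-5 upstream region were of unique sequence. All 20 thresholded peaks of the members also lay in sequence that was unique at each of these lengths. The sources used here state neither the read length nor how repeated reads were treated.

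**Figure D1:**
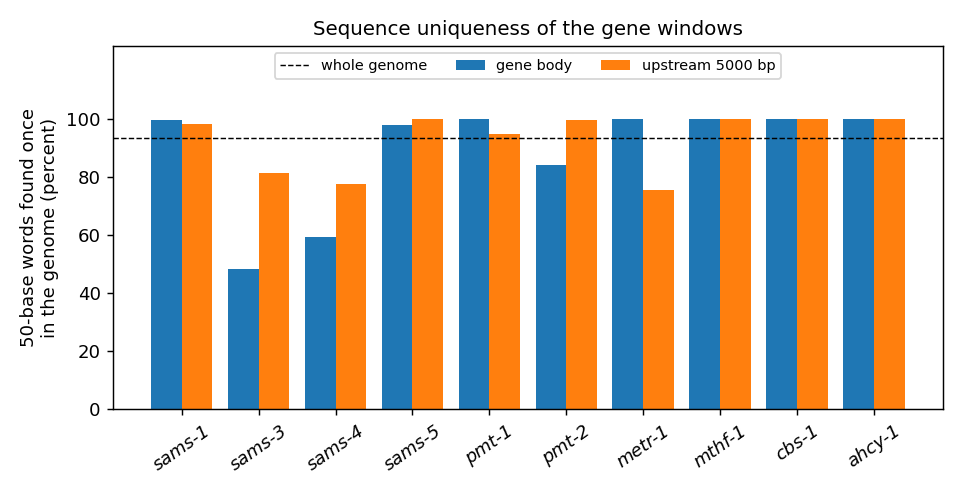
Share of 50-base stretches (percent, y axis) that occur once in the genome, on either strand, for the gene body (blue) and the 5000 bp upstream (orange) of each of the 10 genes, with the share over the whole genome (93.5%) as a dashed line. The bodies of sams-3 (48.2%) and sams-4 (59.3%) stand lowest, and sams-5, which has no peak, is at 97.8% and 100%. The upstream windows of sams-3 and sams-4 reach into the other gene's body, and that of metr-1 is at 75.3%.

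pmt-1 (WBGene00022781, II 5278090 to 5282523, minus strand), whose product makes the first methylation of phosphoethanolamine, had its peaks inside the gene. The strongest, at II 5282318 to 5282521 (signal 303, rank 1947), lay in an intron 99 bp downstream of the gene start and 77 bp upstream of another annotated start. It ranked 2574 in replicate 1 and 1763 in replicate 2, with the summit at the same base in all 3 lists. The peak at II 5281235 to 5281461 lay 1180 bp into the gene (signal 287, rank 2119) and ranked 1694 and 2734 in replicates 1 and 2, so the order of these 2 peaks differs between the replicates. The third peak, at II 5280303 to 5280726 (signal 110, rank 6537), lay 236 bp upstream of an internal start at 2244 bp. Each of its 3 summits was in an intron, and no thresholded summit lay in the 5000 bp upstream.

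pmt-2 (WBGene00018811, V 4628580 to 4635263, plus strand), which encodes the enzyme of the later methylations, had the weakest leading peak of the 7 genes. That peak, at V 4628529 to 4628952, lay in the 5′ untranslated region 161 bp downstream of the start, with a signal of 218 and rank 3111. In replicate 1 its nearest summit was at 72 bp (rank 3473) with another at 271 bp (rank 4978, in a coding exon), and in replicate 2 it was at 236 bp (rank 2855). The replicate summits nearest to the pooled one were thus 164 bp apart, the widest gap of the 20 peaks. The pooled summit lay between the 2 summits of replicate 1. The one at 271 bp was nearer to the replicate 2 summit, so the gap depends on how partners were matched. The second, in an intron at V 4630300 to 4630723, lay 1932 bp from the start (signal 181, rank 3913) and ranked 2923 and 4803. It thus came before the first peak in replicate 1 and after it in replicate 2. As at pmt-1, all thresholded summits were inside the gene.

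metr-1 (WBGene00010988, II 10926561 to 10931078, plus strand), the methionine synthase gene, had 2 intergenic peaks upstream and none inside. The stronger, at II 10924757 to 10924968, had a signal of 347 and came at rank 1569 (1361 and 1830 in replicates 1 and 2). Its summit lay 1696 bp upstream of metr-1 and 617 bp from the start of Y19D2B.2, past the end of that small gene. The second, at II 10925931 to 10926090, lay 553 bp upstream of metr-1 with a signal of 217 and rank 3121 (3411 and 3069).

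mthf-1 (WBGene00015512, II 7773904 to 7777823, minus strand), which encodes methylenetetrahydrofolate reductase, had 2 intronic peaks near its annotated starts. The stronger, at II 7777389 to 7777623, lay 319 bp into the gene (signal 261) and came at rank 2427 in the pooled list, at 2528 in replicate 1 and at 2429 in replicate 2. The second, at II 7776813 to 7776998, lay 94 bp upstream of an internal start at 1038 bp, with a signal of 141 and rank 5147 (5746 and 4700). In both replicates the first was stronger than the second.

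cbs-1 (WBGene00013866, X 10054275 to 10057528, plus strand), the cystathionine beta-synthase gene, had the strongest peak of the 10 genes. It stood at X 10051622 to 10052043 (signal 565) and came at rank 669 in the pooled list, at 692 in replicate 1 and at 669 in replicate 2. Of all protein-coding genes, 61.0% of which had no summit, 5.13% had a stronger peak in their window. The summit lay 2487 bp upstream of cbs-1 in an intron of gnrr-3, a receptor gene on the same strand, whose start was nearer at 2328 bp. A second summit of the same interval lay 2284 bp upstream of cbs-1 (signal 108, rank 6658), so these 2 are not separate regions. Nearer to cbs-1 were 2 weak intergenic peaks, at 387 bp (signal 131, rank 5596) and 1137 bp (signal 91.4, rank 7649) upstream of its start. The last ranked 6825 in replicate 1 and 11033 in replicate 2.

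ahcy-1 (WBGene00019322, I 6836469 to 6838140, plus strand), which encodes S-adenosylhomocysteine hydrolase, had 2 summits upstream, in overlapping intervals. The stronger, at I 6835280 to 6835629, was intergenic and 1052 bp upstream of the start, with a signal of 306 and rank 1909 (2216 and 1744 in replicates 1 and 2). The other, 853 bp upstream in the non-coding RNA gene K02F2.11, had a signal of 153 and rank 4768 (5977 and 4329). Neither replicate ranked the second above the first.

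**Figure D2:**
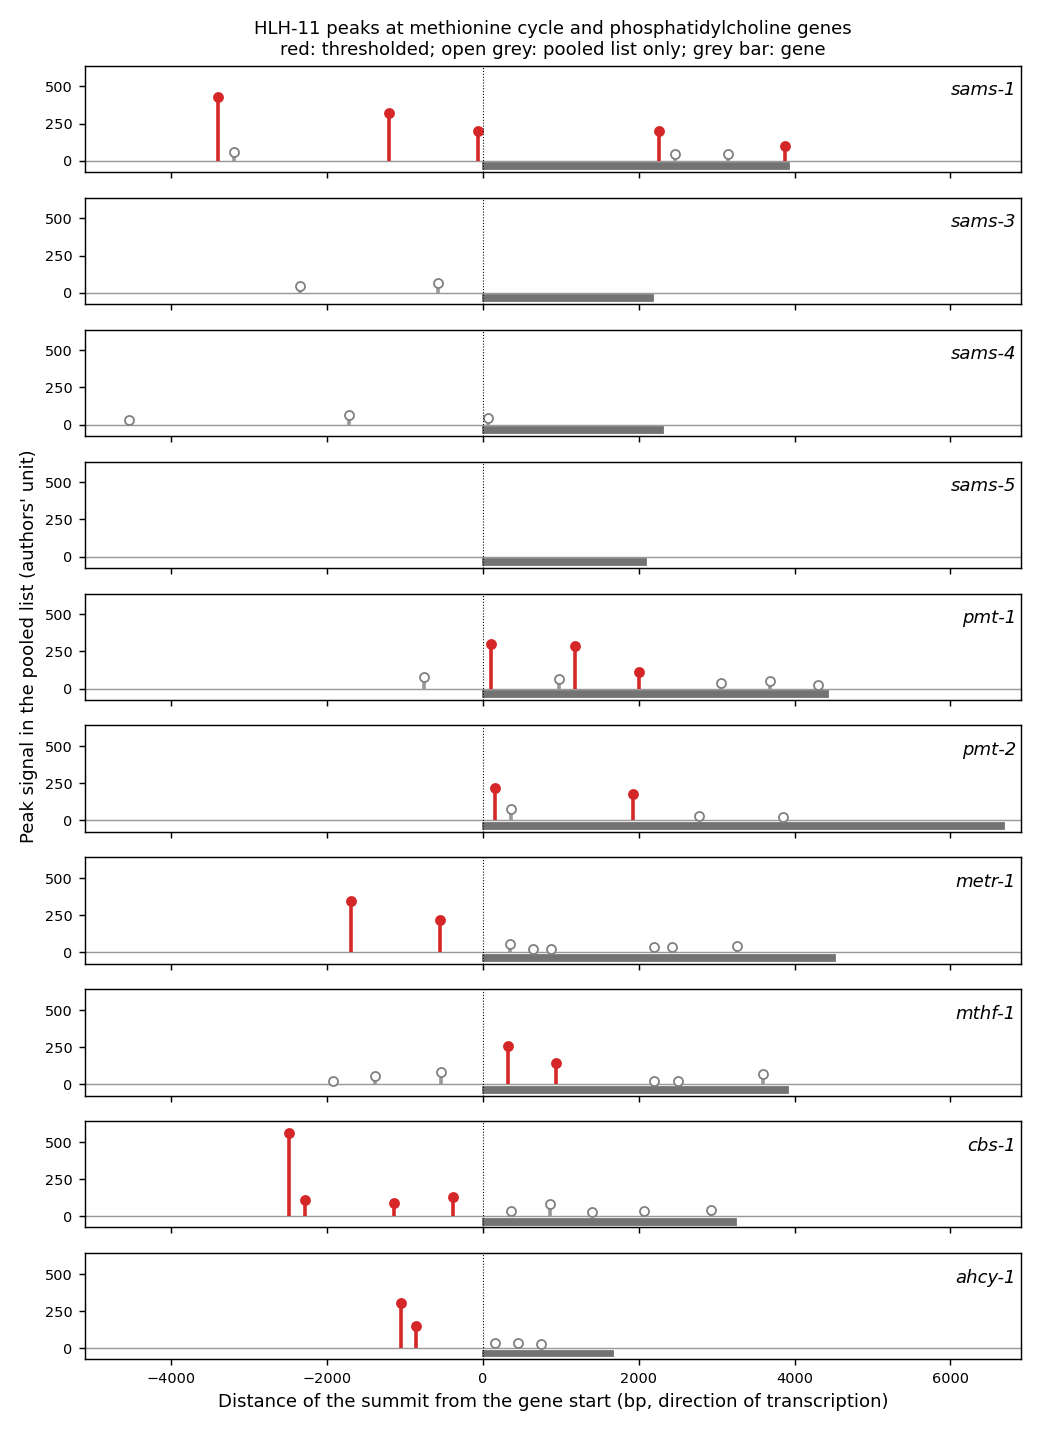
Summits of the pooled list at the 10 genes by distance from the gene start in bp along the direction of transcription (x axis) and peak signal in the authors' unit (y axis). Red points are thresholded peaks, open grey points are pooled peaks below the threshold, grey bars are the genes and the dotted line is the gene start. Thresholded peaks of metr-1, cbs-1 and ahcy-1 lie upstream, those of pmt-1, pmt-2 and mthf-1 inside the gene, and sams-1 has both, while open points also lie inside metr-1, cbs-1 and ahcy-1 and upstream of pmt-1 and mthf-1; sams-3 and sams-4 show open points only and sams-5 shows none.

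Across the 7 genes, 11 of the 20 summits were upstream of the gene start and 9 inside the gene. The strongest peaks of sams-1, metr-1, cbs-1 and ahcy-1 lay more than 1000 bp upstream, and those of pmt-1, pmt-2 and mthf-1 lay within 500 bp of an annotated start of the gene. For 3 genes (sams-1, metr-1 and cbs-1) the start of another protein-coding gene was nearer to the strongest summit than their own. Of the 10 genes, 7 had a thresholded summit from 1000 bp upstream to 500 bp downstream of an annotated start, against 21.3% of all protein-coding genes. Genes with several annotated starts have more such sequence, and pmt-1 has 4 starts and mthf-1 has 3. By annotation, 9 summits were in introns, 7 in intergenic sequence, 2 in non-coding genes, 1 in a 5′ and 1 in a 3′ untranslated region, and none in coding exons. The matching shares over all thresholded summits are not given here, so these positions cannot be called particular to the 7 genes.

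Strength was above the middle of the list for most of these peaks. Signals ran from 91.4 to 565 with a median of 208, against 181 over all thresholded peaks, and 13 of the 20 were above the median of all. The strongest peak per gene had a median signal of 306 over the 7 genes, against 229 over all genes with a summit. This comparison makes no allowance for the number of summits per gene. Each of the 7 had at least 2, whereas 4528 of the 7790 genes with a summit had only 1. The strongest pmt-2 peak had a signal of 218, below the 229 of all genes with a summit. In the shares that follow, genes without a summit, 61.0% of all, count as having no stronger peak. The share of all protein-coding genes with a stronger peak was 5.13% for cbs-1, 8.08% for sams-1, 11.3% for metr-1, 13.6% for ahcy-1, 13.8% for pmt-1, 16.8% for mthf-1 and 20.5% for pmt-2. The replicates do not keep this order throughout. In replicate 1 the strongest peak of metr-1 (rank 1361) came before that of sams-1 (1530), and that of mthf-1 (2528) before that of pmt-1 (2574). In replicate 2 metr-1 (1830) came after ahcy-1 (1744) and pmt-1 (1763). Just inside the threshold were the cbs-1 peak with a signal of 91.4 and the sams-1 peak with 95.8. Just outside it were a pooled peak 532 bp upstream of mthf-1 (83.4, rank 8256) and one in a coding exon of cbs-1 (83.2, rank 8266).

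**Figure D3:**
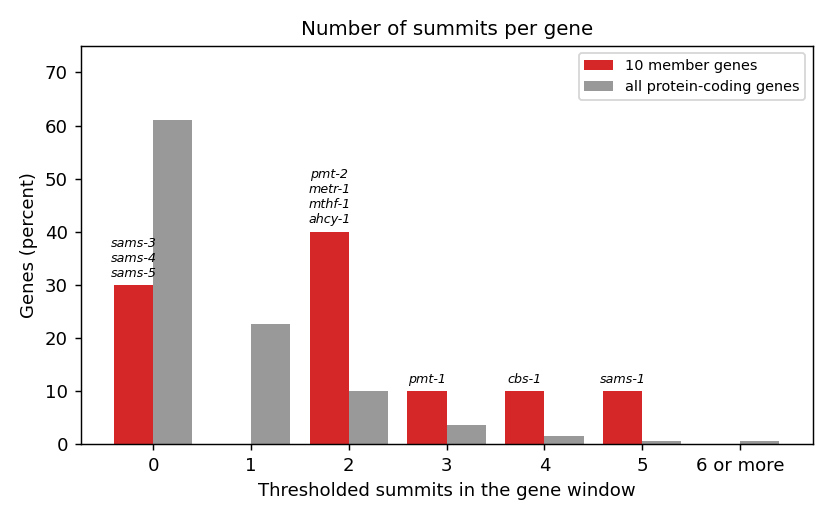
Share of genes (percent, y axis) by the number of thresholded summits in the gene window (x axis), for the 10 members (red, names above the bars) and all 19973 protein-coding genes (grey). No member has exactly 1 summit: 3 have none and 7 have 2 to 5, whereas 61.0% of all genes have none and 22.7% have 1.

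Every one of the 20 peaks had a partner summit within 100 bp in both replicates, as had 95.5% of all thresholded peaks. Of these, 17 had partners among the strongest 7863 of each replicate (85%, against 78.6% of all). The exceptions were the weakest sams-1 peak and 2 weak cbs-1 peaks. The replicate summits were 13 bp apart in the median, against 19 bp for all matched peaks, and 16 of the 20 pairs were within 30 bp. Ranks differed between replicates by 1.02 to 1.64 times, with a median of 1.27, the same as for all matched peaks. The Spearman correlation of ranks over the 20 peaks was 0.892. It describes peaks that share the same 2 libraries and that were selected by the signal pooled over both. Of the 20, 9 ranked higher in replicate 1 and 11 in replicate 2, so neither replicate was stronger throughout. In the reverse direction, 3 peaks of a replicate's strongest 7863 in these windows had no thresholded summit within 100 bp. They were the second pmt-2 summit of replicate 1, a peak in the 3′ untranslated region of ahcy-1 in replicate 1 (rank 7763) and one in a cbs-1 coding exon in replicate 2 (rank 7636).

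**Figure D4:**
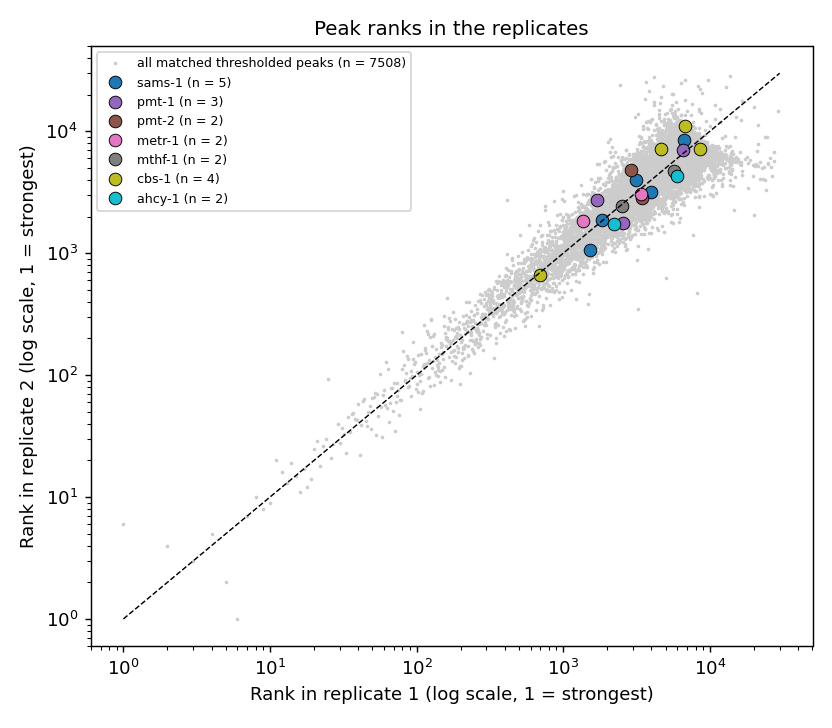
Rank of each thresholded peak in replicate 1 (x axis) against its rank in replicate 2 (y axis), both on log scales with 1 as the strongest, for 7508 matched peaks (grey) and the 20 peaks of the members (coloured by gene); the dashed line marks equal ranks. The members' points lie along the line, from the cbs-1 peak at ranks 692 and 669 to another cbs-1 peak at 6825 and 11033.

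E-boxes were about as frequent at these summits as at all others. Any CANNTG lay within 50 bp of 9 of the 20 summits, against 44.1% of all thresholded summits and 31.1% of windows of the same length centred 300 bp to either side. CACGTG was at 3 of the 20, against 5.84% of all summits and 1.82% of the flanking windows. CAGCTG was at none of the 20, against 4.34% of all summits. The distance of CACGTG from the summit was above the median in all 3 cases: over the 459 summits that hold it, that median was 22.5 bp and 24.0% were more than 35 bp away. TGATAA was at 8 summits and CTTATC at 7, and 11 had at least 1 of them, against 28.2% of all summits and 12.6% of flanking windows. Those 11 summits belong to 6 of the 7 genes, all but ahcy-1, and both hexamers stood together at 4 summits, 1 each of sams-1, pmt-2, metr-1 and mthf-1. GAGAGA was at 4 summits, against 24.3% of all. A match is a string of letters in the window and was not tested as a binding site.

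Other genes of the surrounding pathways, 54 of the 55 listed having a match in the annotation, had a thresholded summit in 38 cases (70.4%), against the 39.0% of all genes given above. The lists were chosen with earlier results of these data known and were not matched for window length. The higher share is therefore a description and no support for a preference for these pathways. The median signal of the strongest peaks of the listed genes was 310, against 229 over all genes with a summit. By list it was 259 for folate and one-carbon genes, 317 for transsulfuration and glutathione genes, 317 for the Kennedy pathway, 209 for methyl users and 518 for regulators. Folate and one-carbon genes had one in 8 of 11 cases, led by the methionine synthase reductase gene mtrr-1 (signal 953, rank 213, 2979 bp upstream), the serine hydroxymethyltransferase gene mel-32 (494, rank 868, 4729 bp upstream) and cblc-1, a gene of vitamin B12 handling (375, rank 1386). Transsulfuration and glutathione genes had one in 6 of 8 cases, led by cysl-1 (1008, rank 180, 4223 bp upstream), the cystathionine gamma-lyase gene cth-2 (589, rank 617) and cysl-2 (343, rank 1601). cbs-2, the paralogue of cbs-1, had none.

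Of 16 genes of the Kennedy pathway, which builds phosphatidylcholine from choline, and of phospholipid assembly, 11 had a summit. lpin-1, the lipin gene, had 8 summits, the strongest with a signal of 1280 and rank 85 at 4663 bp upstream. The choline and ethanolamine phosphotransferase genes cept-1 (535, rank 741) and cept-2 (520, rank 785) followed. Among users of the methyl group 8 of 11 had a summit, with anmt-2 (336, rank 1643), the arginine methyltransferase gene prmt-5 (309, rank 1881) and the ubiquinone synthesis gene coq-3 (304, rank 1936) highest. All 5 matched regulators had one, led by the nuclear receptor gene nhr-68 (1600, rank 37), the Mediator subunit gene mdt-15 (606, rank 583, 4624 bp upstream) and the nuclear receptor gene nhr-114 (518, rank 789). The strongest sbp-1 peak had a signal of 406 and rank 1200. The transporter genes of choline and betaine, snf-3, cho-1 and chtl-1, had none. Peaks as far upstream as those of mel-32, lpin-1, mdt-15 and cysl-1 can lie nearer to other genes.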

How the data were processed

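Chromatin immunoprecipitation and sequencing of tagged HLH-11 was analysed from peak lists of 2 biological replicates. Per the labels, chromatin was sonicated to 200 to 800 bp and positions are on ce11. The deposited lists give a signal, a −log10 q value and a summit offset for each peak. Signal ranked peaks within a list, and the authors' −log10 q values, which reach a ceiling, were not used. Per the accompanying notes, the lists derive from the alignments and 1 further file; which caller and aligner made them is not stated there. Of the thresholded peaks, 219 share an interval with another.

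Genes came from Ensembl release 115 on WBcel235 and sequence from the RefSeq copy of that assembly; no peak reached past a chromosome end. Replicate partners were the nearest summits within 100 bp among all 30000 peaks. Motifs were searched on both strands within 50 bp of the summit. Protein identity came from global alignments with Biopython 1.88, and other values from Python 3.11.15 with pandas 2.3.3. Window counts and motif searches were tested on simulated data. The members and lists were chosen with earlier results of these data known. Named were all members with their thresholded peaks and up to 3 genes per list by signal; sbp-1, cbs-2, the transporter genes, replicate-only peaks and the sequence at the sams-1 start were chosen after their values were seen. No test was made, since 1 group allows no contrast. Alternatives changed the peaks used, the gene window, the match distance and the motif window.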

Additional observations from a re-analysis of the deposited data

How the results depend on the processing

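The same 7 genes had a summit with the stronger part, split at the median signal, of the thresholded peaks, with either replicate's own strongest 7863 peaks, with overlapping peaks merged, with windows of 2000 bp upstream to the gene end or of promoters alone, and with each summit given to the nearest start. With only the 5000 bp upstream searched 4 of 10 had one, against 6987 of all 19973 protein-coding genes, a like share, since pmt-1, pmt-2 and mthf-1 have theirs inside the gene. With all 30000 pooled peaks 9 had one, sams-5 being the exception. The count over all 19973 protein-coding genes was 7790, and 4953 with the stronger part and 12119 with all pooled peaks. It was 4247 with promoters, 4580 with the nearest start and 5741 with windows from 2000 bp upstream to the gene end. It was 8001 with the strongest peaks of replicate 1, 7700 with those of replicate 2 and 7786 with overlapping peaks merged. The pathway list count ran from 27 to 49 of 54 around the 38 given. With 50 bp between summits, 6 of the 7 strongest peaks had partners in both replicates, pmt-2 being the exception. With 100 bp to either side of the summit 15 of the 20 summits had an E-box, against 65.7% of all summits, and with 25 bp 7 had one, against 24.9%. No paired analysis was possible because there is 1 group. Without read counts or a control, weak peaks cannot be told from background in these lists, and 2 replicates allow no error on a rank.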

Other observations

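Below the threshold, the pooled list added 36 summits to the windows of the members, of which 2 count for both sams-3 and sams-4. The highest signal among them was 83.4, at mthf-1. metr-1 and mthf-1 had the most, with 6 each. The 6 of metr-1 all lay in its coding exons, between 344 and 3258 bp from the start, whereas its thresholded peaks were both upstream. The 3 of ahcy-1 lay in its coding exons as well, 157 to 749 bp from the start, and the 5 of cbs-1 lay in its exons and introns. None of the 20 thresholded summits was in a coding exon, but the share over all thresholded or all pooled summits is not given for comparison. The GC content in the 101 bp around the members' thresholded summits had a median of 39.1%, against 43.6% over all thresholded summits and 34.7% in the flanking windows.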
